A study of Homo sapiens with 18 samples.

Results

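The initiator methionine tRNA, iMet-CAT, is the tRNA that brings the first methionine to the ribosome. Its members here are the lines of the deposited table whose tRNA name starts with tRNA-iMet-CAT. This rule gave 7 of 725 listed adenosines, all in 1 of 180 tRNA genes. They were followed by m1A-MAP-seq in small RNA of the WPMY-1 line, immortalised myofibroblasts of the human prostate stroma, which counts for each adenosine the reads that cover it and those that carry a mismatch. The cells carried an empty vector (TRMT61A wildtype) or an shRNA against TRMT61A (knockdown), and each line had input RNA, RNA immunoprecipitated with an antibody to N1-methyladenosine (IP) without AlkB, and the same IP treated with the demethylase AlkB. Each of the 6 groups had 3 libraries, 18 in all. The labels name neither the shRNA sequence nor separate cultures or clones, so the spread behind each p-value is that of these libraries and may be technical. TRMT61A mRNA was not analysed here, and the knockdown itself was not checked.

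N1-methyladenosine (m1A) carries its methyl group on the base-pairing face of the adenine, so reverse transcriptase tends to stop at it or to insert a wrong base. The TRMT6/TRMT61A complex makes m1A at position 58 in the T loop of cytosolic tRNAs, and in budding yeast the initiator tRNA is known to depend on this methyl group for its stability. AlkB removes the methyl group, so signals that fall after AlkB treatment are the ones usually read as m1A.

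The sequences of the initiator and of 1 elongator methionine tRNA are shown because the initiator's T loop, in capitals, departs from that of most tRNAs and holds 4 of its 7 listed adenosines. Both are tRNA genes of their own, in RefSeq TRX-CAT1-1 at chr1:153671250-153671321 on the plus strand and TRM-CAT2-1 at chr16:71426493-71426565 on the plus strand (hg38), and the letters are those of the deposited table, 5′ to 3′.
iMet-CAT-1-1: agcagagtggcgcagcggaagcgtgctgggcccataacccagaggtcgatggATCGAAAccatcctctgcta
Met-CAT-2-1: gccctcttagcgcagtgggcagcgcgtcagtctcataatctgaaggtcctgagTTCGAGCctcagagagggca

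The initiator gene is 72 nucleotides long, and the table lists its adenosines at nucleotides 49, 53, 57, 58, 59, 62 and 72. These are positions 50, 54, 58, 59, 60, 63 and 73 of the standard tRNA numbering. Nucleotide 57, 15 nucleotides before the 3′ end, is the TRMT61A target, position 58. The T loop covers nucleotides 53 to 59. Of the 180 genes, 167 (92.8%) had a T loop that starts with TTC, and 3 had one that starts with A, among them the initiator. No other gene of the table had the same T-loop letters. The gene has 18 adenosines, and the 11 that are not listed all lie 5′ of nucleotide 49, among them those of the anticodon loop. The table names 8 genes with this sequence, 1 on chromosome 1, 6 on chromosome 6 and 1 on chromosome 17, and RefSeq has 8 TRX-CAT genes on the same chromosomes. Reads of these copies cannot be told apart by their sequence, so no value belongs to 1 copy. Whether the listed name collects the reads of all 8 is not given.

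Site reads added up to between 225291 and 307959 per input library and between 115571 and 890426 per IP library. At nucleotide 62, the initiator's best covered site, there were 258 to 380 reads in input and 504 to 7519 in the IP libraries. Nucleotide 62 had the highest or joint highest count in 18 of 18 libraries. The highest count of any site in the table was 8015, close above the 7519 of vector IP replicate 3. A depth limit in the counting near this value is possible and was not tested, and it would bear on the passage and the share of reads of that library. No 2 replicates were as alike as counting error alone would make them (chi-square divided by its degrees of freedom, 1.605 to 444.1), and the IP libraries spread far more than the input libraries.

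Mismatches were rare along the whole of the initiator tRNA. Over its 7 sites and 18 libraries, 671 of 177759 site reads were mismatched, and 22 of 126 counts were 0. The highest rate in any library was 1.47%, 4 of 273 reads at nucleotide 49 in AlkB-treated knockdown replicate 3. With the 7 sites pooled, vector input had a rate of 0.266% ± 0.0881 and knockdown input one of 0.373% ± 0.111 (SD, n = 3). In the same order it was 0.362% ± 0.0494 and 0.332% ± 0.0609 in the untreated IP (SD, n = 3). After AlkB it was 0.423% ± 0.157 and 0.438% ± 0.1 (SD, n = 3). No group reached a mean of 1% at any site.

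**Figure D1:**
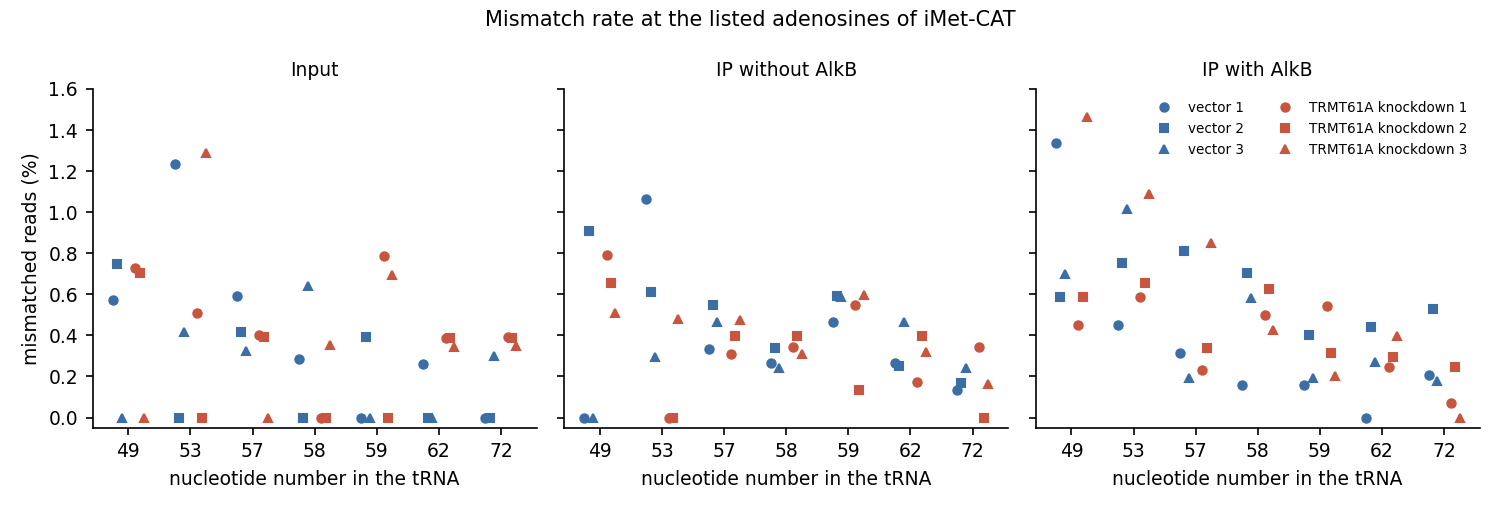
Mismatched reads in percent (vertical axis) at the 7 listed adenosines of iMet-CAT (horizontal axis, nucleotide number) in input, untreated IP and AlkB-treated IP; each point is 1 library, blue for vector and red for TRMT61A knockdown, with the replicate given by the symbol. All points lie at or below 1.47%, and the lines overlap except in input at nucleotides 62 and 72. There every knockdown library, with 1 mismatched read each, lies above every vector library, with 0 or 1. Neither site was called (quasi-binomial model, adjusted p = 0.766), and how often other sites separate in this way was not counted.

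At nucleotide 57, the TRMT61A target, vector input had 2 of 337, 1 of 240 and 1 of 310 reads mismatched, or 0.593%, 0.417% and 0.323%. Knockdown input had 1 of 249, 1 of 254 and 0 of 279, and 0 of 279 allows a rate of up to 1.08%. Each library thus rests on 0 to 2 mismatched reads. The vector mean of 0.444% ± 0.138 and the knockdown mean of 0.265% ± 0.23 (SD, n = 3) gave a difference that did not pass a two-sided exact permutation test (p = 0.4); 3 against 3 libraries cannot go below p = 0.1. The difference of -0.179 percentage points was -0.0466 without knockdown replicate 3, the library with no mismatched read, and -0.105 without vector replicate 1.

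In the untreated IP, where 756 to 7518 reads covered nucleotide 57, the vector libraries had 0.332%, 0.549% and 0.466% mismatched and the knockdown libraries 0.309%, 0.397% and 0.476%. These ranges overlapped (exact permutation p = 0.5, n = 3). The vector mean was 0.449% ± 0.11 here, beside 0.444% ± 0.138 in input (SD, n = 3). In the AlkB-treated IP the vector libraries had 0.315%, 0.812% and 0.195% and the knockdown libraries 0.23%, 0.339% and 0.849%, with no order between the lines (exact permutation p = 0.7, n = 3). Over the other tRNAs' sites at the same distance from the 3′ end, the untreated vector IP had a pooled rate of 0.645% ± 0.0331 and the untreated knockdown IP one of 0.598% ± 0.09 (SD, n = 3).

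Across 7 comparisons of mismatch rates, the quasi-binomial model adjusted over all sites called 0 of 49 initiator tests, and 1 had an unadjusted p under 0.05. The background was as low: 0 of 379 sites were called between the lines in input (0%), 0 of 255 in the untreated IP and 0 of 359 in the treated IP, with 10, 16 and 11 sites at an unadjusted p under 0.05. limma on logit rates called 2, 0 and 0 sites. Between treated and untreated IP, 0 of 251 sites were called in vector and 1 of 249 in knockdown (0.402%; 0 without the replicate block), none of them in the initiator. Nucleotide 58, standard position 59, had the lowest initiator p: in knockdown cells it went from 0.35% to 0.517% with AlkB (adjusted p = 0.316, quasi-binomial model). In the authors' deposited table, the untreated minus treated difference at nucleotide 57 was above 0 in 4 of 6 IPs, with a highest value of 0.271 percentage points. It stood at 0 in vector replicate 2 and knockdown replicate 3, although the rate was higher after AlkB in both. There it went from 0.549% to 0.812% and from 0.476% to 0.849%.

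Where mismatches were rare, the coverage along the tRNA differed between fractions. cDNA synthesis runs from the 3′ end to the 5′ end, so a loss of coverage from a site to the next one upstream shows where cDNAs end or fragments begin. In 5 of 6 untreated IP libraries nearly all reads that covered nucleotide 62 also reached 57; knockdown replicate 3 had 84.2%. At nucleotide 53, the next listed site, 4 nucleotides further upstream, 5 of the 6 had lost most of these reads, while knockdown replicate 2 kept 55.1%. In input the loss at this step was smaller, and after AlkB it was smaller than in the untreated part of each IP.

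**Figure D2:**
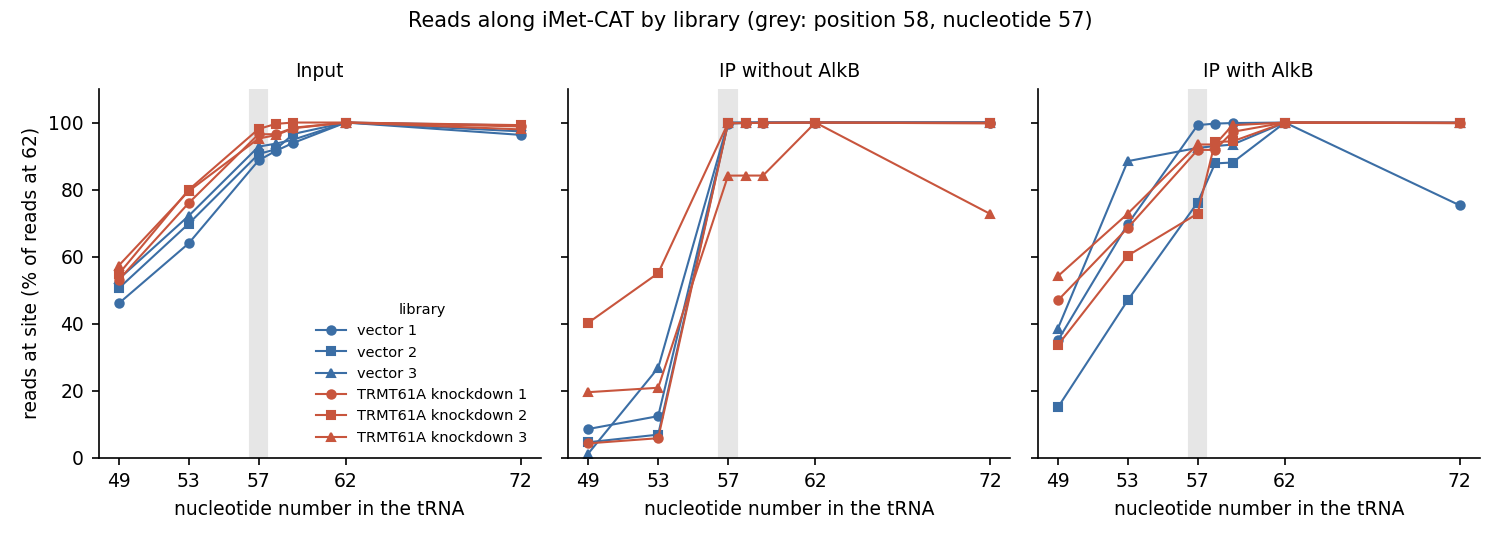
Reads at each listed site of iMet-CAT as percent of the reads at nucleotide 62 (vertical axis) against the nucleotide number (horizontal axis), 1 line per library, blue for vector and red for knockdown; the grey band marks nucleotide 57, standard position 58. In the untreated IP the lines stay near 100% down to nucleotide 57 in 5 of 6 libraries and then drop, to between 5.86% and 55.1% at nucleotide 53. There the input lines lie between 63.9% and 79.9% and the AlkB-treated lines between 47.0% and 88.5%, some of which drop at other steps.

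Vector input had 337, 240 and 310 reads at nucleotide 57 and 243, 185 and 241 at nucleotide 53, so that 72.1%, 77.1% and 77.7% of the coverage passed on. The untreated vector IP had 1507, 2367 and 7518 reads at nucleotide 57 but 188, 164 and 2018 at nucleotide 53, a passage of 12.5%, 6.93% and 26.8%. The AlkB-treated vector IP had 635, 862 and 1027 reads at 57 and 446, 532 and 983 at 53, a passage of 70.2%, 61.7% and 95.7%. All 3 untreated libraries lay below all input and all treated libraries.

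The knockdown cells had the same order. Passage was 78.7%, 81.5% and 83.5% in input, 5.87%, 55.2% and 24.8% in the untreated IP, and 74.7%, 82.8% and 77.9% in the treated IP. Replicate 2 of the untreated IP, at 55.2%, stood far above the other two, and no treated library went below 74.7%. Group means were 75.6% ± 3.08, 15.4% ± 10.3 and 75.9% ± 17.7 in vector and 81.2% ± 2.41, 28.6% ± 24.9 and 78.5% ± 4.09 in knockdown, for input, untreated and treated IP (SD, n = 3).

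**Figure D3:**
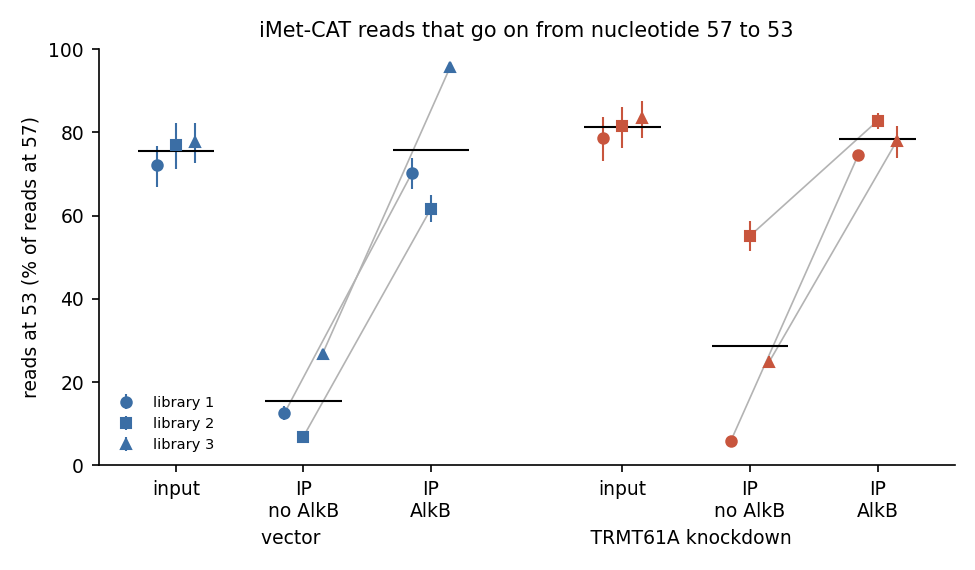
Reads at nucleotide 53 as percent of the reads at nucleotide 57 of iMet-CAT (vertical axis) in input, untreated IP and AlkB-treated IP of both lines; points are libraries with exact binomial 95% counting intervals, black bars are means of 3 libraries, and grey lines join the 2 parts of an IP. Passage is higher with AlkB in each of the 6 IPs.

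Passage from nucleotide 57 to 53 was higher with AlkB in 6 of 6 IPs, by 27.6 to 68.9 percentage points (mean 55.2; exact sign-flip permutation p = 0.03125, two-sided, the smallest that 6 pairs allow). The comparison was chosen after its values were seen. In limma over all steps between neighbouring sites with both lines in the fit, the log2 passage was 2.23 higher with AlkB (SE 0.44), with an adjusted p of 0.0628. In that fit 2 of 201 steps were called (0.995%), both lower with AlkB and both in tyrosine tRNAs, so no step was called higher. Without the replicate block the initiator step was called (limma, adjusted p = 0.0393). With the block, the step ranked 10 by p among the 201 and 14 by the size of its increase. Taken by line, the log2 change was 2.49 in vector (adjusted p = 0.337) and 1.97 in knockdown (adjusted p = 0.628, limma), and the groups did not overlap in either line. Without knockdown replicate 1 the knockdown value was 1.12. Such a separation, higher with AlkB, was seen in 6.3% of 254 steps in vector and in 5.96% of 235 steps in knockdown.

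A change of the response to AlkB with knockdown was not detectable. The gain with AlkB was 60.5 percentage points in vector and 49.8 in knockdown, a difference of -10.6 points (exact permutation p = 0.4, n = 3). On the log2 scale the difference of gains was -0.53 with a 95% interval from -3.06 to 2.00 (limma, adjusted p = 1), so a difference of several-fold in either direction was not detectable with these libraries. In the untreated IP, passage in knockdown minus vector was 0.60 on the log2 scale (adjusted p = 1, limma), and it turned to -0.13 without knockdown replicate 2.

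Against input, the untreated IP had lost passage in all 3 libraries of each line. In vector 14.3% and in knockdown 7.41% of all steps were lower in this way. The log2 difference was -2.51 in vector (limma, adjusted p = 0.113, or 0.031 without the replicate block) and -2.02 in knockdown (limma, adjusted p = 0.405, or -1.16 without replicate 1). limma called 44 of 231 steps in vector (19%) and 12 of 216 in knockdown (5.56%). The AlkB-treated IP differed from input by 0.246 percentage points in vector (exact permutation p = 1, n = 3) and by -2.77 points in knockdown (exact permutation p = 0.4, n = 3). Both were inside the spread of the treated libraries.

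In input, passage was higher in knockdown than in vector, and the libraries did not overlap. The means were 81.2% and 75.6%, a log2 difference of 0.10 (SE 0.041, limma, adjusted p = 0.313). The same separation was seen in 16.1% of 347 steps, and limma called 6.63%. The counting interval of a library reached up to 5.5 points to either side, close to the size of that difference.

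Upstream of the T loop, passage from nucleotide 53 to 49 was 72%, 72.4% and 73.9% in vector input and 69.9%, 68.6% and 72.1% in knockdown input. In the untreated vector IP it was 69.1% and 67.1% in replicates 1 and 2 but 4.81% in replicate 3. That library had 2018 reads at nucleotide 53 and 97 at nucleotide 49, so its coverage fell a second time after the loss between 57 and 53. The difference between the lines in this IP-to-input change was not called (limma, adjusted p = 0.925), with 1 of 192 steps called (0.521%). Of the reads at nucleotide 57, 8.63%, 4.65% and 1.29% reached nucleotide 49 in the untreated vector IP, against 51.9% to 57.4% in vector input. In the untreated knockdown IP the share was 22.6% ± 18 (SD, n = 3). With AlkB it was 32.2% ± 11.3 in vector, where every library (19.7% to 41.7%) stayed below input, and 51.7% ± 5.95 in knockdown (SD, n = 3). Treated knockdown libraries, at 46.1% to 58%, all lay above the treated vector libraries (exact permutation p = 0.1, n = 3, the smallest possible). Reads at 49 over those at 57 were compared for the initiator alone, so how often other tRNAs separate in this way is not known. After AlkB, 50.2%, 32% and 43.5% of the coverage passed from 53 to 49 in the vector libraries, below all vector inputs. The share of all steps lower in this way was not counted. The treated vector mean was 41.9% ± 9.24, and treated knockdown had 66.2% ± 9.56 (SD, n = 3), with an adjusted p of 0.94 in limma.

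Read-through of position 58 was measured as the reads at nucleotide 57 over those at the 3′ end, nucleotide 72. This ratio counts reads that reach the target adenosine, including any that end there, so a high value does not show passage beyond it. The 52 tRNAs tested were those with 20 or more reads at the 3′ end per library. Among them the initiator had the highest read-through in this sense in input. Its values were 92.9% ± 0.795 in vector and 97.9% ± 0.839 in knockdown (SD, n = 3). In the same order, the medians over the 52 were 13.9% and 18.6%. In the initiator, unlike at these medians, nearly all coverage of the 3′ end extended to the target adenosine. With reads of 3 libraries pooled, Phe-GAA-1-3 came close, at 87.0% in vector and 96.3% in knockdown. Val-TAC-2-1 had 83.5% and 88.2% in the same order. The initiator's vector libraries spanned 92.1% to 93.7% and its knockdown libraries 97.2% to 98.8%, without overlap (exact permutation p = 0.1, n = 3). How many of the 52 tRNAs separated in this way was not counted. The log2 change of 0.08 (SE 0.067) was not called (limma, adjusted p = 0.374), while 14 of the 52 tRNAs were (26.9%). Their median change was 0.44, and 49 of the 52 were higher in knockdown. The initiator ranked 50 by the size of its change. Within this stretch, passage from nucleotide 62 to 59 was 95.2% in vector and 98.9% in knockdown, without overlap (limma, adjusted p = 0.116). Passage from 58 to 57 was 98.1% and 99.1%, with overlap (limma, adjusted p = 0.663). A separation with knockdown higher was seen in 16.1% of 347 steps.

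**Figure D4:**
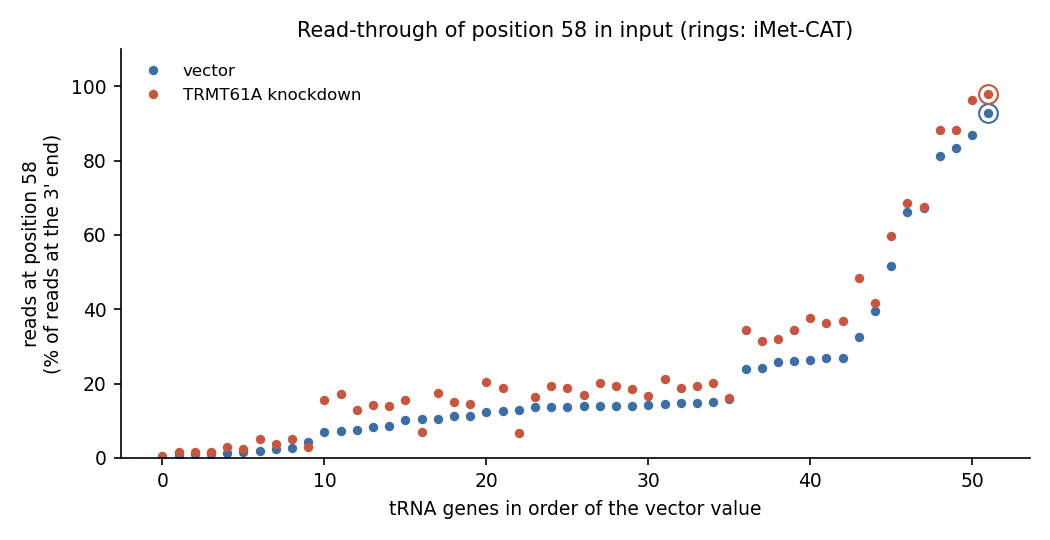
Reads at position 58 as percent of the reads at the 3′ end in input (vertical axis, reads of 3 libraries pooled) for 52 tRNA genes in order of their vector value (horizontal axis), blue for vector and red for knockdown. The rings mark iMet-CAT, which holds the highest place in both lines.

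In the untreated IP, the vector libraries had a read-through of 99.8% ± 0.161 and the knockdown libraries one of 105% ± 9.07 for the initiator (SD, n = 3). Neither was called against input (limma, adjusted p = 0.506 and 0.763), where 24 of 45 tRNAs (53.3%) and 20 of 44 (45.5%) were called. The value above 100% comes from knockdown replicate 3, which had 4204 reads at nucleotide 57, 4995 at 62 and 3634 at 72. With AlkB, read-through in knockdown was 86.1% ± 11.5 (SD, n = 3; 72.9% to 93.6%), below every untreated library (limma, adjusted p = 0.75), where limma called 0 of 39 tRNAs (0%), with 1 at an unadjusted p under 0.05. In vector it was 100% ± 28.6 (SD, n = 3; 76.1% to 132%) and overlapped the untreated libraries (limma, adjusted p = 0.964), where 4 of 45 (8.89%) were called. Reads at 57 over those at 62 were lower with AlkB in vector, 89.3% ± 11.9 against 99.8% ± 0.161 (SD, n = 3). The treated libraries spanned 76.1% to 99.2% and the untreated ones 99.67% to 99.99% (exact permutation p = 0.1, n = 3). In knockdown the ratio was 86.0% ± 11.5 with AlkB and 94.6% ± 9.04 without (SD, n = 3), with overlap (exact permutation p = 0.5, n = 3). This ratio was taken for the initiator alone, so how often other tRNAs separate is not known. The knockdown read-through and the vector ratio of 57 to 62 thus ran opposite to passage from 57 to 53, which was higher with AlkB.

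The share of reads that the initiator took is a level relative to the other tRNAs. In input it was 0.445%, 0.387% and 0.436% of reads in vector and 0.383%, 0.356% and 0.492% in knockdown, taking for each tRNA gene its best covered site. The groups overlapped, and edgeR gave a log2 change of 0.10 (adjusted p = 0.689), with a sign that turned in 3 of 10 alternative settings. In the same comparison 19 of 45 anticodons were called (42.2%). Fewer cells of a kind and less of an RNA per cell cannot be told apart in such bulk libraries.

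The elongator methionine tRNAs Met-CAT, which serve all internal methionine codons and read the same codon, are the nearest other tRNAs. They had 2291, 2113 and 2343 reads in vector input and 1242, 1310 and 1059 in knockdown input. Their share fell from 2.94% ± 0.223 to 1.81% ± 0.0337 (SD, n = 3), a log2 change of -0.54 (edgeR, adjusted p = 3.19e-05). For 1 elongator read there were 0.145 ± 0.0203 initiator reads in vector input and 0.227 ± 0.043 in knockdown input (SD, n = 3). The initiator was counted at nucleotide 62, on the 3′ side of its T loop. The elongators were counted at nucleotides 43 and 44, upstream of theirs, where only reads that cross the T loop count. The sites are thus not alike, and the ratio does not give the amount of initiator per elongator. This ratio was higher in all 3 knockdown libraries than in any vector library, at the smallest p an exact permutation test can give here (p = 0.1). How often the ratios of other anticodons to the elongators separate in this way was not counted. At nucleotide 49, upstream of its T loop, the initiator had fewer reads, 175, 134 and 178 in vector input and 137, 142 and 168 in knockdown input. The ratio with the initiator counted there was not tested.

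In the untreated IP the initiator's share was 0.821%, 1.22% and 4.62% in vector and 1.34%, 1.4% and 3.13% in knockdown, above every input library. How many of the 45 anticodons separated in this way was not counted. edgeR gave a log2 change against input of 2.48 in vector (adjusted p = 0.0811, or 3.0 with adjusted p = 0.0384 without the replicate block, and 1.7 with adjusted p = 0.631 without replicate 3) and 2.51 in knockdown (adjusted p = 0.0329). It called 13 of 45 anticodons in vector (28.9%) and 19 of 45 in knockdown (42.2%). The knockdown call was lost without replicate 1 (log2 2.78, adjusted p = 0.18), without replicate 3 (2.05, adjusted p = 0.245) and with anticodons of at least 20 reads in every library (1.26, adjusted p = 0.0574). Between the lines the untreated IP differed by -0.37 (edgeR, adjusted p = 0.968), and by 0.94 without vector replicate 3.

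**Figure D5:**
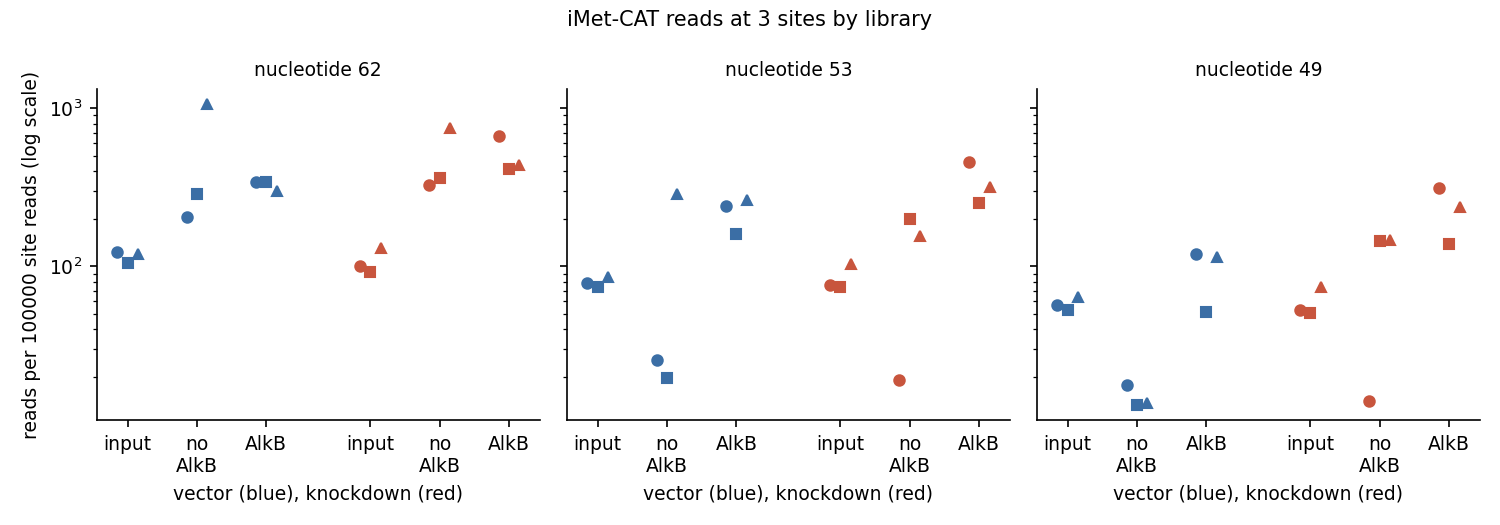
Reads of iMet-CAT at nucleotides 62, 53 and 49 per 100000 reads over all listed sites (vertical axis, log scale) in input, untreated IP and AlkB-treated IP, blue for vector and red for knockdown, 1 point per library with the replicate given by the symbol. At nucleotide 62 all IP libraries lie above all input libraries, while at nucleotide 49 the untreated vector libraries lie below input. How often other sites separate in these ways was not counted.

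In the untreated vector IP, whether the initiator's reads lay above or below input depended on the site at which they were counted. Per 100000 site reads, nucleotide 62 had 123, 106 and 119 in vector input and 206, 285 and 1062 in the untreated vector IP. Nucleotide 49 had 56.8, 53.4 and 63.7 in vector input but 17.7, 13.2 and 13.7 in the untreated vector IP. The 3′ part was thus higher and the 5′ part lower in all 3 libraries. With AlkB, nucleotide 49 came to 120, 51.2 and 115 in vector.

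Knockdown cells had 100, 92.7 and 130 at nucleotide 62 in input and 328, 361 and 749 in the untreated IP. At nucleotide 49 they had 53.3, 50.8 and 74.6 in input and 14.2, 146 and 147 in the untreated IP, so that replicate 1 lay below input, as the vector libraries did, and the other two lay above it. With AlkB, nucleotide 49 had 315, 139 and 236 in knockdown, above all 3 input libraries.

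edgeR was run over all sites after these values were seen. Between the lines it called 0 of the 7 initiator sites in input, where it called 44.8% of 475 sites. It also called 0 of 7 in the untreated and in the treated IP, where it called 0 of 436 and 0 of 541 sites, with 24 and 23 at an unadjusted p under 0.05. In the untreated vector IP against input edgeR called 1 of the 7, nucleotide 57 (log2 2.69, adjusted p = 0.0486), where 17.3% of 497 sites were called higher. Nucleotide 62 had 2.55 (adjusted p = 0.057, or 3.01 with adjusted p = 0.0213 without the replicate block), and nucleotide 49 had -1.18 (adjusted p = 0.291). The value at 62 without single replicates lay between 0.88 and 2.00, the lowest without replicate 3. In knockdown 0 of the 7 and 0 of 510 sites were called by edgeR (0%), with 193 sites at an unadjusted p under 0.05. There nucleotide 62 had a log2 change of 1.52 and nucleotide 49 one of -0.24, where the median over all sites was -0.96.

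After AlkB treatment most initiator sites were higher than in input. edgeR called 6 of 7 sites in vector, all but nucleotide 49, where 28.4% of 538 sites were called higher, and 7 of 7 in knockdown, where 30.7% of 521 were. The same reads cover several of the 7 sites, so these are not separate observations. The log2 change at nucleotide 62 was 1.37 in vector (edgeR, adjusted p = 0.0295) and 1.84 in knockdown (edgeR, adjusted p = 0.00533), and at nucleotide 49 it was 0.50 (adjusted p = 0.459) and 1.52 (adjusted p = 0.0143). The vector call at nucleotide 62 was lost without replicate 1, 2 or 3 in turn (adjusted p from 0.0654 to 0.263), and both knockdown calls were lost without replicate 1 (adjusted p = 0.123). Directly between treated and untreated IP, 0 of 7 sites were called in either line, where edgeR called 72 of 497 sites in vector (14.5%) and 0 of 538 in knockdown.

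The elongator methionine tRNAs nearly vanished from the IP. They had 2 to 11 reads in the 6 untreated libraries, and 0 to 55 in 5 of the 6 treated libraries, with 259 in vector replicate 3. The log2 change against input was -9.95 in vector and -8.11 in knockdown (edgeR, adjusted p = 1.93e-06 and 7.62e-05). Their listed adenosines lie at nucleotides 43 and 44, upstream of the T loop, and none is listed at position 58. The value nearest to these in the initiator is therefore that of nucleotide 49, not that of nucleotide 62. Their T loop reads TTCGAGC in each of the 3 listed genes.

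By the share of reads over 18 libraries, the anticodons most like the initiator among 23 with at least 20 reads in every library were Ala-CGC (Pearson r = 0.816), Pro-TGG (0.772) and Pro-CGG (0.754). Within the fractions the likeness was lower. Within the 6 input libraries r was -0.384, 0.349 and 0.163, and within the 12 IP libraries 0.362, 0.143 and 0.129. Shares of 1 library add up to a whole, so these values are not independent.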

How the data were processed

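The table holds raw counts per library, per the file headers: a count of covering reads and a count of mismatched reads. The mismatch rate, a fraction that the authors made from these counts, was recomputed, and the deposited fold column, a ratio of untreated to treated rates, was not used. The build was hg38, and the tools were SAMtools 1.3.1, Bowtie2 2.2.4 and cutadapt 1.9.3, per the submitters' processing notes; how reads of identical genes were placed is not given in the sources used here. The 6 lines whose counts repeated another line were counted once. Groups came from the labels.

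Mismatch was tested with a quasi-binomial model in R 4.3.3 where each library compared had 20 or more reads at the site; a blocked site with no residual degree of freedom was left out. Read-through and passage were tested with limma 3.58.1 on log2 ratios (pseudocount 0.5 for passage), reads per anticodon and per site with edgeR 4.0.16 (TMM, quasi-likelihood), all adjusted by Benjamini-Hochberg over the whole table at 0.05, two-sided. Per site, edgeR took sites with at least 20 reads in 3 or more libraries of the comparison. IP against input and AlkB-treated against untreated IP were blocked by replicate number, as the protocol divides 1 IP; the fits without it are given where they change a call. As a check, deviations of same-numbered libraries correlated at -0.25 to 0.201, and no pair of groups had all above 0.1. Single values were compared with exact permutation tests in R. Counting intervals are exact binomial at 95% (SciPy 1.17.1), a count of 0 allows 3 counts, and both cover counting error only. For passage the intervals treat reads at the upstream site as drawn from those at the downstream site. The scripts' tests were tested on simulated data.

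The members and the comparisons were chosen with earlier results of these data known, and passage and reads per site were added after the values were seen. Named were all initiator sites, the Met-CAT tRNAs and the 3 anticodons most like the initiator in share of reads. Alternatives were other read minimums, pseudocounts and normalisations, DESeq2 1.42.0, limma on logit rates, the block, and each replicate left out in turn.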

Additional observations from a re-analysis of the deposited data

Results flagged for a closer look

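Passage from nucleotide 53 to 49 of the initiator tRNA in the untreated IP against input moved in opposite directions in the 2 lines. In vector it was lower in the IP than in the input of the same number in all 3 pairs, by a mean of -25.8 percentage points (from -69.1 to -2.87), and in knockdown it was higher in all 3, by a mean of 9.97 points (from 3.79 to 21.6). limma on the difference between the lines gave a log2 value of 1.55 with a 95% interval from -1.80 to 4.90 (adjusted p = 0.925), and 1 of 192 steps was called (0.521%). How often steps of other tRNAs moved in opposite directions in this way was not counted. The vector mean rests on replicate 3, at 4.81% in the IP; the other 2 vector pairs differed by less than the counting interval of a library. The same holds in knockdown, where the mean rests on replicate 3 (21.6 points), so the opposite directions rest on 1 library in each line.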

How the results depend on the processing

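Over 35 results and 251 alternative values, 226 kept direction and side of the threshold. All 65 alternatives of the 7 mismatch results left 0 initiator sites called. Without the replicate block, passage from 57 to 53 had the same log2 values, -2.51 for vector IP against input and 2.23 for AlkB in both lines, and was called; reads were also called for vector IP against input, at 3.0 per anticodon and 3.01 at nucleotide 62, and nucleotide 49 in knockdown IP against input turned to 0.289. The 1 site of another tRNA called under AlkB in knockdown was lost without the block, which changed no other call among the 35 results. With 20 reads required in every library, reads per anticodon turned to -0.0854 in input and weakened to 1.26 in knockdown IP against input. With a minimum of 50, nucleotide 62 under AlkB in knockdown turned to 0.0572 and nucleotide 49 in knockdown IP against input to 0.226. Leaving out single replicates, passage from 57 to 53 in knockdown minus vector ranged from -0.13 to 1.48 in the untreated IP and from -0.065 to 0.25 in the treated IP (the lowest without vector replicate 2), and AlkB in both lines from 1.94 to 2.56. Reads per anticodon ranged from -0.039 to 0.12 in input (below 0 without replicate 1 of either line), from -0.91 to 0.94 in the untreated IP, and from 2.05 to 2.95 for knockdown IP against input. Nucleotide 62 under AlkB ranged from -0.90 to 0.30 in vector (above 0 without replicate 3) and from -0.39 to 0.69 in knockdown (above 0 without replicate 2 or 3), and nucleotide 49 in knockdown IP against input from -0.41 to 1.10 (above 0 without replicate 1). Treated IP against input ranged from 1.3 to 1.48 at nucleotide 62 in vector, from 1.54 to 2.27 in knockdown, and from 1.14 to 1.83 at nucleotide 49 in knockdown. The causes were not tested; leaving out a replicate also removes residual degrees of freedom. Counts of 0 to 2 mismatched reads limit the input rates at the target adenosine.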
